A study of Mus musculus with 2 samples.

Results

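A set of 10 genes for cartilage matrix proteins other than collagens was examined in PDGFRα+ cells sorted from the inguinal fat pad of mice: Acan, Comp, Matn2, Matn3, Matn4, Hapln1, Chad, Cilp, Cilp2 and Prg4. They were chosen by name, with earlier results of these data known, as matrix genes of the tissue whose formation SOX9 is best known for. Each had exactly 1 probe set that the platform annotation ties to 1 gene. These 10 genes stand among 19938 genes measured. Expression was measured on 2 microarrays, 1 per group, each holding the pooled RNA of 3 animals, per the series' design text. The floxed group held female mice aged 6 weeks with floxed Sox9, and the PreASKO group held females of the same age labelled Sox9 PreASKO. Both groups had received doxycycline at postnatal day 1. The promoter that drives recombination in PreASKO mice, and whether the floxed mice carried the same driver, are not given in the sources used here. With 1 array per group there is no replicate, no error and no test for any difference, and nothing below separates the genotype from the spread between arrays.

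In cartilage, SOX9 acts together with SOX5 and SOX6 on genes of the chondrocyte matrix. Aggrecan, encoded by Acan, is the large proteoglycan that holds water in cartilage, and link protein, encoded by Hapln1, fixes it to hyaluronan. Matrilins (Matn2, Matn3, Matn4) are adaptor proteins of matrix filaments, COMP is a pentameric thrombospondin that binds collagen, and chondroadherin (Chad) is a leucine-rich protein that binds cells and collagen. Cilp and Cilp2 encode paralogous proteins of the cartilage intermediate layer, and Prg4 encodes lubricin, the lubricant of joint surfaces. Several of these genes are also transcribed outside cartilage, Matn2 and Cilp among them in fibroblasts and other connective tissue.

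Promoter sequences of RefSeq (build GRCm38.p6), reaching from 250 bases before to 50 bases after a gene's start, were on hand for 7 of the 10 genes, as 8 promoters. The genes without one were Comp, Matn2 and Prg4. The SOX core was searched as ACAAT, with ATTGT as its other strand, and the TATA element as TATAA, with TTATA as its other strand. The core was found in 2 of the 8 promoters, those of Hapln1 and Cilp2, against 31.0% of 32851 promoters of the same length. The paired form, ACAAT followed after 4 bases by ATTGT, which reads alike on both strands, was in none of the 8 and in 9 of the 32851. TATAA was found in 2 of the 8, those of Cilp and Chad, against 24.9% of all. A match describes letters and not a bound site, and a window without one says nothing of more distant enhancers. The promoters shown are that of Cilp, which was detected on both arrays, and those of Cilp2 and Hapln1, which hold the core. Capitals mark ACAAT and TATAA. They lie at chr9:65264930-65265229 on the + strand (Cilp), chr8:69887343-69887642 on the - strand (Cilp2) and chr13:89540386-89540685 on the + strand (Hapln1), and each is written 5′ to 3′.
Cilp: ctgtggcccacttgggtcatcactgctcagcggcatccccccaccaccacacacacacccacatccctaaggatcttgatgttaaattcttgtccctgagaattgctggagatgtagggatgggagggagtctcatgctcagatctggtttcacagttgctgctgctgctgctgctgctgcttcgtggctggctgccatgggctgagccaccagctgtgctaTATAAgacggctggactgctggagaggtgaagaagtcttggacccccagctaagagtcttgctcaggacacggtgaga
Cilp2: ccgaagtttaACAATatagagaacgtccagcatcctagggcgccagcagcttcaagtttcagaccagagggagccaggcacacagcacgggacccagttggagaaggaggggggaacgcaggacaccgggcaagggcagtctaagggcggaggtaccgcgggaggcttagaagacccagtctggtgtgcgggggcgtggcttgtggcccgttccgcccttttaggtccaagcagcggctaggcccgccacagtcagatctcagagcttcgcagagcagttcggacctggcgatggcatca
Hapln1: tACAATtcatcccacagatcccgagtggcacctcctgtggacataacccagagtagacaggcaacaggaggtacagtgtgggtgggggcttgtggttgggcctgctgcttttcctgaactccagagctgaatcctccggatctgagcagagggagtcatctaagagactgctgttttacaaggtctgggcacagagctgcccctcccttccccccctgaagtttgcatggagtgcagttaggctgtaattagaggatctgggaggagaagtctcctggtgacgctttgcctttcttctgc
In the Cilp promoter TATAA starts at position -28 from the gene's start. The core of Cilp2 starts at position -240 and that of Hapln1 at position -249, both near the far end of the window.

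The first question was which of the genes could be told from silent genes. Olfactory receptor genes, 1027 of which had a value, served as the silent set, and their 95th percentile on the same array, 4.64 in floxed and 4.47 in PreASKO, was taken as background. All levels are the deposited values on the log2 scale. Of the 10 genes, 2 lay above background on both arrays, Matn2 and Cilp, and the other 8 lay below it on both. Of all 19938 genes, 56.3% lay above background on both arrays. Values of different probe sets cannot be ranked against each other as amounts of RNA, so no order of abundance is read among the 10 genes.

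**Figure D1:**
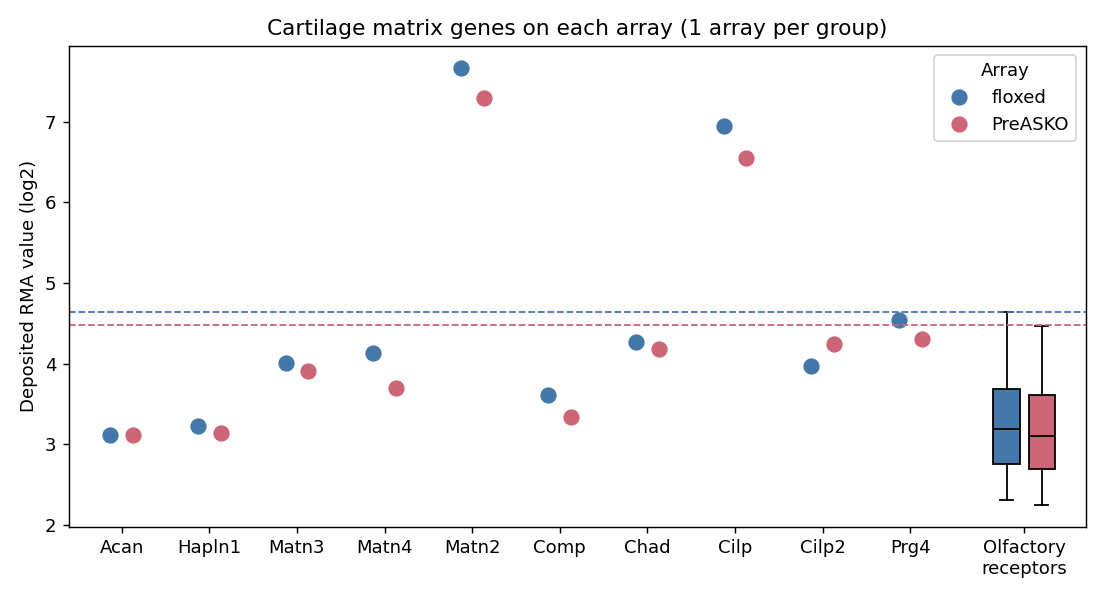
Deposited values (log2) of the 10 genes on the floxed and the PreASKO array, 1 point per array. Boxes show the olfactory receptor genes (median, quartiles, whiskers at the 5th and 95th percentiles), and dashed lines carry their 95th percentile (4.64 and 4.47) across; only Matn2 and Cilp lie above the lines.

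Matn2 was at 7.67 in floxed and 7.29 in PreASKO, above each of the 1027 olfactory receptor genes on both arrays. The difference, PreASKO minus floxed, was -0.38, or 1.30-fold lower. Cilp was at 6.95 in floxed and 6.55 in PreASKO, a difference of -0.40, or 1.32-fold lower. It exceeded every olfactory receptor gene in floxed and 99.9% of them in PreASKO. Both genes were above background, both were lower in PreASKO, and neither reached 1.5-fold (0.58 on the log2 scale), the limit named in the series' design text. Among the genes above background on both arrays 2.18% reached it. In such bulk samples fewer cells of a type and less RNA per cell cannot be told apart.

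The size of these differences can be read against genes of like level. Among 1046 genes whose mean over the arrays lay within 0.25 of that of Matn2, 2.29% were lower by at least as much. Among 1473 genes within 0.25 of the mean of Cilp the share was 3.73%. Of the 11218 genes above background on both arrays, 45.8% were lower in PreASKO, with a median difference of 0.02. These shares describe 2 arrays and are no error rate. On rescaling by loess or by quantiles Matn2 stayed between -0.40 and -0.38 and Cilp between -0.43 and -0.40.

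Acan and Hapln1, the genes of aggrecan and link protein, were at the level of silent genes. Acan held the same value, 3.12, on both arrays and exceeded 45.2% of the olfactory receptor genes in floxed and 50.9% in PreASKO. Exactly equal values occurred in 758 genes (3.80%), 533 of them below background on both arrays, and in 8.37% of the olfactory receptor genes. Hapln1 was at 3.22 and 3.14, above 51.7% and 52.7% of the olfactory receptor genes. Both genes therefore sat near the middle of the silent set, and these arrays set no measured level for either.

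The other matrilins differed from Matn2 in being below background. Matn3, a matrilin of growth plate cartilage, was at 4.001 in floxed and 3.91 in PreASKO. Matn4 was at 4.13 and 3.70, above 88.7% and 79.0% of the olfactory receptor genes. Differences between values that both lie below background have no measured size, so no fold is given for these genes.

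Comp was at 3.62 in floxed and 3.34 in PreASKO, above 71.9% and 63.2% of the olfactory receptor genes. Chad was at 4.26 and 4.18, above 90.8% and 91.3% of them. Cilp2, the paralogue of Cilp, was at 3.97 and 4.25. It was the only one of the 10 with the higher value in PreASKO, and both values lay below background. Cilp and Cilp2 thus differed in detection, with Cilp above background and Cilp2 below it on both arrays.

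Prg4 was nearest to background among the genes below it. It was at 4.54 in floxed, 0.11 under the mark of that array, and at 4.31 in PreASKO, 0.17 under the mark. It exceeded 94.1% and 93.1% of the olfactory receptor genes. With the 90th percentile as background Prg4 and Chad would count as detected on both arrays, making 4 of 10, and with the 99th percentile the count was 2.

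None of the 10 genes reached 1.5-fold in either direction, where 3.64% of all genes did (1.66% higher and 1.98% lower). Among the 10, 8 were lower in PreASKO, 1 was equal and 1 was higher, with a median difference of -0.16. Over all genes 48.0% were lower and the median difference was 0.00. Below background the silent set itself leaned the same way. Of the 8 genes below background 6 were lower, with a median of -0.09, while 57.9% of the olfactory receptor genes were lower, with a median of -0.08. With values below background raised to it, the median of the 10 genes was 0 and Matn2 and Cilp alone kept a difference.

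**Figure D2:**
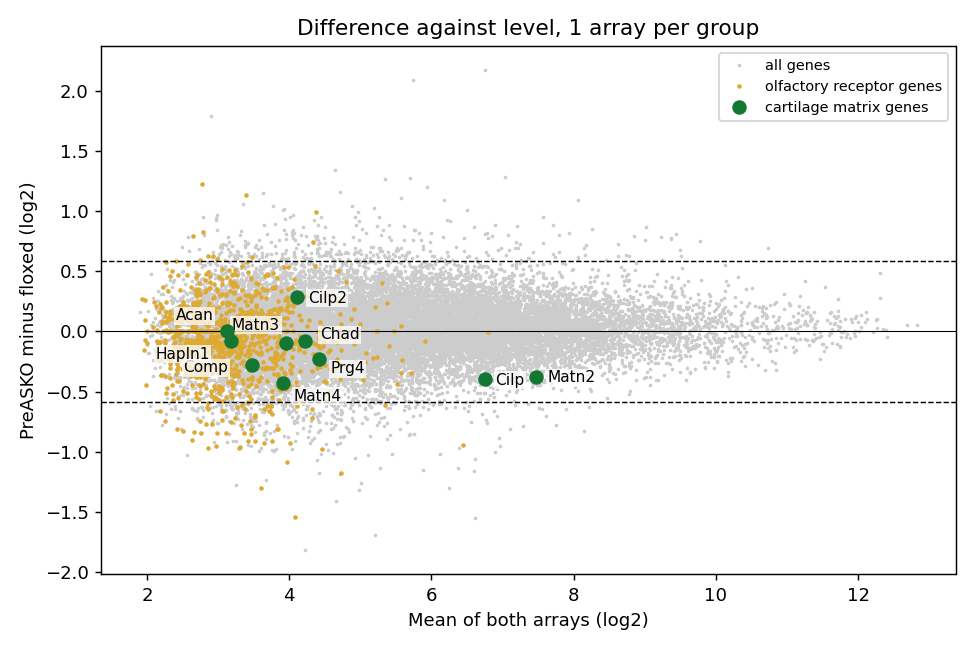
Difference PreASKO minus floxed (log2) against the mean of both arrays (log2) for all 19938 genes (grey), 1027 olfactory receptor genes (yellow) and the 10 cartilage matrix genes (green). Dashed lines mark 1.5-fold in either direction; 8 of the green points lie among the olfactory receptor genes, while Matn2 (-0.38) and Cilp (-0.40) lie at higher levels inside the lines.

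The regulators and collagens that accompany these genes in cartilage were detected in part. Sox9 was at 5.25 in floxed and 4.97 in PreASKO, a difference of -0.27, above background on both arrays but short of 1.5-fold. Whether its probes cover the deleted part was not examined, so this value does not check the labels. Sox5 was at 5.39 and 5.18, and Sox6 was below background at 3.90 and 3.65. Of 10 measured genes in the list of SOX factors and cartilage collagens, 6 were above background on both arrays, a share near the 56.3% of all genes, and none reached 1.5-fold. All 6 were lower, where 45.8% of all genes above background on both arrays were. The furthest were Col9a3 (-0.30), a chain of collagen IX, Sox9 itself and Col2a1 (-0.22), the main cartilage collagen. The list's median was -0.23, and -0.13 with values below background raised to it, but the highest of these 6 genes was at 5.55 in floxed, close to 5.43, which 99% of silent-set genes do not exceed there.

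Other cartilage matrix and chondrocyte genes did not share one direction. Of 12 measured, 5 were above background on both arrays, where 56.3% of all genes were. Of these 5, 2 were higher and 3 lower. The median over the 12 was 0.04, and over the 5 above background it was -0.15. Fmod, the collagen-binding proteoglycan fibromodulin, passed the limit, 1.75-fold lower (5.96 and 5.15). Chadl, a relative of chondroadherin (-0.23), and Epyc, a small proteoglycan of growth cartilage (-0.15), were lower, and Prelp, a leucine-rich matrix protein (0.28), and Snorc, a chondrocyte membrane proteoglycan (0.13), were higher.

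Genes that build the hyaluronan and proteoglycan network were largely detected, unlike Acan and Hapln1. Of 22 measured, 16 were above background on both arrays, where 56.3% of all genes were. Of these 16, 9 were higher and 7 lower. Over the 22, none reached 1.5-fold and the median was 0.03. Vcan, which encodes versican, a relative of aggrecan, was at 9.68 and 9.71. The link protein genes Hapln3 and Hapln4 were below background on both arrays and Hapln2 on floxed. The furthest differences above background were those of the chondroitin sulfate transferases Csgalnact1 (-0.46) and Csgalnact2 (-0.32) and of Xylt2 (-0.16) in one direction. In the other they were those of Xylt1 (0.27), which like Xylt2 starts glycosaminoglycan chains, Papss2 (0.25), which supplies activated sulfate, and the sulfate transporter gene Slc26a2 (0.21).

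Of 12 protease genes of cartilage matrix and their inhibitor, 10 were above background on both arrays, 3 higher and 7 lower. The share of all genes above background was 56.3%. None of the 12 reached 1.5-fold and their median was -0.04. The aggrecanase genes Adamts4 and Adamts5 were at 7.005 and 9.67 in floxed and differed by -0.05 and -0.14. Adamts1 (-0.41), Adamts12 (-0.32), whose product cleaves COMP, and the serine protease gene Htra1 (-0.27) were furthest in the negative direction. Timp3 (0.35), the inhibitor of aggrecanases, Adamts15 (0.34) and Adamts7 (0.07) were furthest in the positive one. Transcripts of aggrecan-cleaving enzymes were thus well above background where Acan itself was not.

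Chondrogenic signals and regulators had 20 measured genes, with a median of 0.04. Above background on both arrays were 10 of them, 6 higher and 4 lower, where 56.3% of all genes were above it. Gdf5, a joint-forming BMP-family ligand, was the 1 gene past the limit, but it was below background on both arrays (3.63 and 4.46). Above background, Bmp4 (-0.30), the parathyroid hormone receptor gene Pth1r (-0.20) and Zbtb20 (-0.12) were lower, and the transcription factor genes Runx1 (0.34), Mef2c (0.23) and Trps1 (0.18) were higher. The negative sign of Zbtb20 held on its brightest probe set, and on its dimmest it was 0.06.

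**Figure D3:**
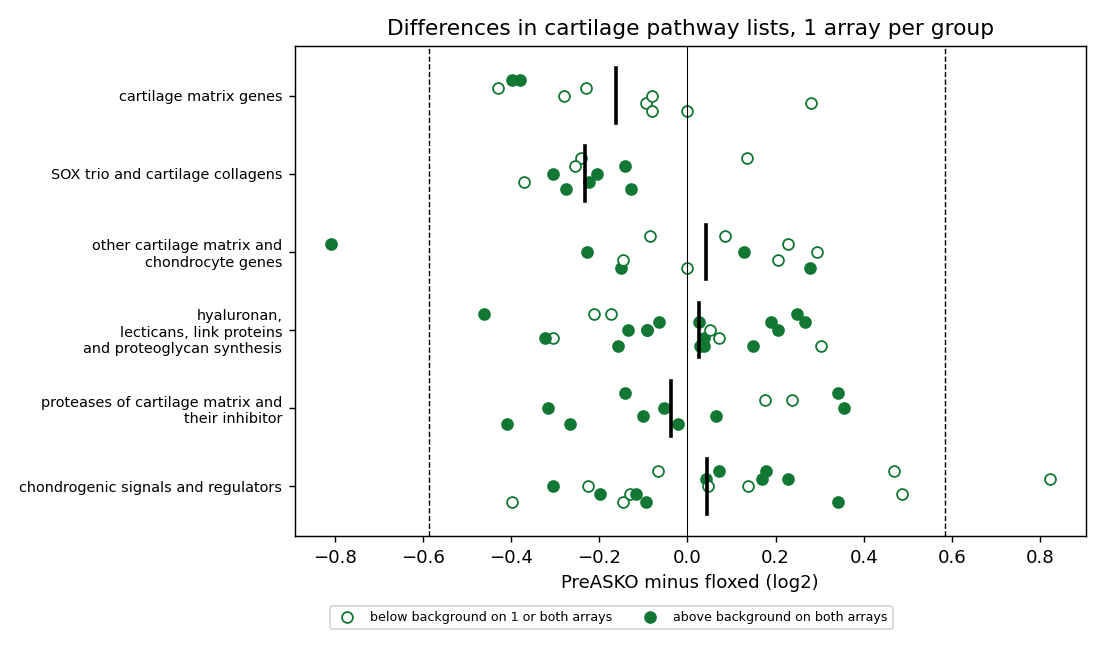
Difference PreASKO minus floxed (log2) of each measured gene in the 10 cartilage matrix genes and the 5 pathway lists; filled points are genes above background on both arrays, vertical bars are medians and dashed lines mark 1.5-fold. The SOX factors and cartilage collagens have a median of -0.23 (-0.13 with values raised to background), and the other 4 pathway lists have medians between -0.04 and 0.04. Over filled points alone the medians are -0.21 for the SOX list, -0.15 for the other cartilage matrix genes and -0.08 for the proteases. They are 0.03 for the hyaluronan and proteoglycan list and 0.06 for the chondrogenic list.

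The sorted cells were checked against markers of fibroblasts and of chondrocytes. All 10 measured markers of PDGFRα+ fibroblasts were above background on both arrays (mean level 10.8 in floxed and 10.7 in PreASKO). Their differences ran from -0.31, which was Pdgfra itself (9.86 and 9.55), to 0.17, with a median of -0.05. Matn2 and Cilp were lower by more than any of them, but lay at lower levels. Among 191 genes within 0.25 of the mean of Pdgfra, 2.62% were lower by at least as much. The like share was 2.29% for Matn2 and 3.73% for Cilp. Of 13 measured chondrocyte markers, 5 were above background on both arrays, where 56.3% of all genes were. These 5 were Col2a1, Col9a2, Col9a3, Col11a2 and Snorc. Only Col9a2 (5.55 and 5.42) exceeded the 99th percentile of olfactory receptor genes, 5.43 in floxed and 5.33 in PreASKO. The mean level over the list was 4.48 in floxed and 4.38 in PreASKO. Matn1, the matrilin gene of cartilage, was at 3.48 on both. Acan, Hapln1 and Matn3 of this list, which are also among the 10 genes examined, were below background as given above.

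Markers of other cell types that a PDGFRα sort could hold also differed between the arrays. All 10 macrophage markers were higher in PreASKO, 2 of them by 1.5-fold, with a median of 0.44 (mean level 8.69 and 9.13). For this and the lists that follow, 48.0% of all genes were lower by any amount. By 1.5-fold, 1.66% of all genes were higher and 1.98% lower. Of 9 mural cell markers, 6 were lower and 1 of these passed the limit, with a median of -0.18 (mean level 6.06 and 5.93). Of 6 tendon cell markers, 4 were higher and 2 lower, with a median of 0.04. Both of the lower ones passed the limit, Thbs4 (7.39 and 5.84), a thrombospondin related to Comp, and Kera (7.39 and 6.39). Egr1, the other gene of this list above background on both arrays, was at 11.36 and 11.42, which was not read as tendon cell content. Scx was at 4.32 in floxed, below background, and at 4.80 in PreASKO. Tnmd and Mkx were below background on both arrays. Schwann cell markers had 5 measured genes with a median of -0.08, and 3 of them were above background on both arrays. These 3 were lower by unlike amounts, Sox10 (5.29 and 4.82), Mbp (5.24 and 5.15) and S100b (7.71 and 7.70). Of 4 synovial lining markers, which include Prg4, 1 was above background on both arrays, and of 8 mesothelial markers 1 was. Of all genes, 56.3% were. Of 7 endothelial markers 6 were lower (median -0.13), and 4 of the 7 were above background on both arrays. Of these 4, 1 was higher and 3 lower (median -0.26). The VEGF receptor gene Kdr passed the limit, 1.61-fold lower (5.55 and 4.86). Of 7 mammary epithelial markers 4 were lower (median -0.01), but 6 of the 7 were below background on both arrays. The 1 past the limit, the keratin gene Krt17, was among these 6. The 1 marker above background on both arrays, Krt8, was higher (0.38). Of 6 skeletal muscle markers 5 were higher (median 0.18). Above background on both arrays were 5 of the 6, 4 higher and 1 lower (median 0.17). The troponin gene Tnnt3 passed the limit, 1.70-fold higher (5.35 and 6.12). The part of these cells in the differences of Matn2 and Cilp was not tested.

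**Figure D4:**
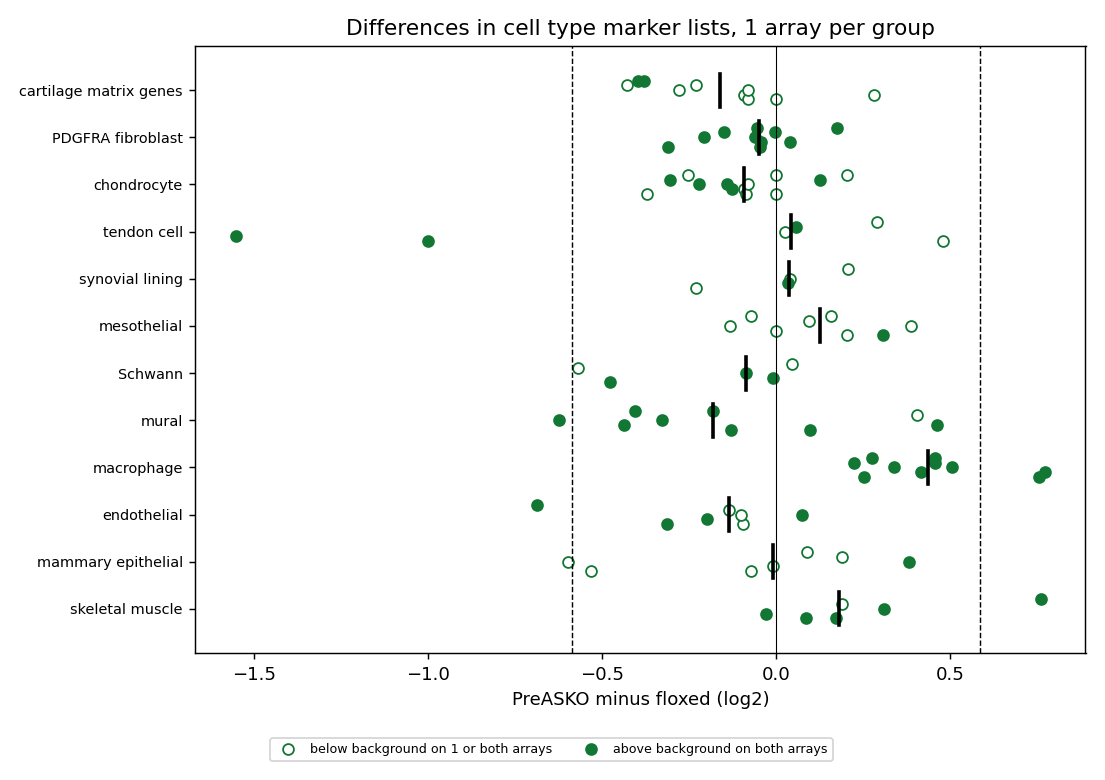
Difference PreASKO minus floxed (log2) of the 10 cartilage matrix genes and of each measured gene in 11 lists of cell type markers; filled points are genes above background on both arrays, vertical bars are medians and dashed lines mark 1.5-fold. The macrophage markers all lie to the right of 0 (median 0.44), and the fibroblast markers lie between -0.31 and 0.17.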

How the data were processed

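RNA from each group was hybridised to 1 array. Per the submitters' processing notes the authors used RMA, which normalizes arrays and summarises each probe set, and the deposited log2 values entered unchanged. Their range of 1.23 to 13.8 is the only basis for the log base. RMA understates differences of dim genes. Array medians were 4.73 and 4.71 over 35556 probe sets. Probe sets naming exactly 1 gene (21789) were kept, and the one with the highest mean represented each of 19938 genes. The platform annotation can be old; the 10 symbols matched a RefSeq table of GRCm38.p6. Number of arrays limits the precision.

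The 10 genes, the gene lists and the alternatives were chosen with earlier results of these data known. Named were the 10 genes, Sox9, Sox5, Sox6, Pdgfra and, per pathway list, genes past 1.5-fold and up to 3 per direction furthest from 0 above background on both arrays. Vcan, the Hapln relatives, Adamts4, Adamts5 and the named markers were picked after their values were seen. No test was made; where the design has 1 array per group, differences are described. The code was tested on simulated data. Python 3.11.15, pandas 2.3.3, numpy 2.4.6, statsmodels 0.14.6 and matplotlib 3.10.9 were used.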

Additional observations from a re-analysis of the deposited data

How the results depend on the processing

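The count of genes above background was 2 with the 99th percentile of olfactory receptor genes and with the higher of both arrays' 95th percentiles. It was 4 with the 90th percentile, and 4 with the 95th percentile of 197 vomeronasal and bitter taste receptor genes, an alternative chosen after seeing the data. The count past 1.5-fold was 0 with loess and with quantile normalization. Each of the 10 genes has 1 probe set, so the choice among probe sets could not move their values, and a count of 0 could not grow at 2-fold or with values raised to background. Raising values to background moved the median difference of the 10 genes from -0.16 to 0. The same step moved the median of the SOX factors and cartilage collagens from -0.23 to -0.13. It moved the count of chondrogenic signals past 1.5-fold from 1 to 0. With loess (span 0.3) and quantile normalization the median of the 10 genes was -0.13 and -0.11, and Acan went from 0 to 0.03 in both. The median of the SOX factors and cartilage collagens was then -0.22 and -0.20. Centring changed nothing because the median difference of all genes was already 0. A shift under 0.1 on the log2 scale was taken as no change, a limit set without replicates. Trps1 moved from 0.18 to 0.28 with the mean over its probe sets and to 0.38 on the dimmest. Differences of genes below background have no measured size, whatever the setting. With 1 array a group, leaving out a replicate could not be tried. No paired analysis was possible because the groups hold only 1 array apiece.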
